A study of Mus musculus with 6 samples.

Results

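Transcription factor genes of endothelial identity, 10 in all, were followed in primary lung endothelial cells of Zmpste24 wild type and knockout mice. Zmpste24 encodes the protease that cleaves prelamin A into mature lamin A. The 10 genes were taken by symbol, as the ETS factor genes Erg, Fli1, Ets1 and Ets2, the SOXF genes Sox7, Sox17 and Sox18, and Tal1, Gata2 and Lyl1, whose proteins also act in blood cells. All 10 were found among the 53735 genes of the normalized-count table, and all 10 passed the filter of a mean of at least 10 normalized counts that left 15229 genes for testing. By its title, the series bears on how endothelium fails in the progeria syndrome HGPS. RNA came from 2 libraries labelled Zmpste24 wild type and 4 labelled Zmpste24 knockout, all from cells picked with beads against CD31 and then ICAM2 and grown to confluence, untreated and unpassaged. Age, sex and strain are not in the labels, nor is the region of Zmpste24 that was deleted. The labels speak of 2 cohorts of mice without assigning libraries to them, and do not tie libraries to animals. All p-values therefore rest on the spread among these 6 libraries, some of which may be technical.

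ETS proteins bind DNA around the core GGAA, which is found in the regulatory regions of very many endothelial genes. ERG and FLI1 are close relatives that keep endothelial genes such as the cadherin gene Cdh5 active. ETS1 and ETS2 are broader, being made in many cell types and linked to growth factor signalling. SOX7, SOX17 and SOX18 form the SOXF group, which acts in arterial and lymphatic specification. TAL1 and LYL1 are related basic helix-loop-helix proteins that work in one complex with LMO2 and a GATA protein, in blood precursors and in endothelium.

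The libraries held 32699024 to 45613685 recovered reads. Zmpste24 itself read 5503 and 4148 normalized counts in the wild type pair and 3599 to 5079 in the knockout-labelled libraries. A whole-gene count cannot test a label when the deleted region is unnamed, and each direction given is that of the labels. On the first principal component wild type 1 and knockout 1 lay far from the remaining 4 libraries. This component held 77.3% of the variance when computed without the 10 genes. These 2 libraries are called the first library set and the other 4 the second, a grouping drawn from the data and not from the labels. Summed over 11 endothelial markers, counts were 179059 in wild type 1 and 107278 in knockout 1, against 58162 in wild type 2 and 39112 to 64310 in knockout 2 to 4. Summed counts of 10 macrophage and leukocyte markers went the other way, at 5241 and 4225 in the first set and 28517 to 46319 in the second, and 6 fibroblast markers summed to 401577 to 470819 in all 6 libraries, although the submitters describe the cells as almost purely endothelial. Fibroblast markers still differed one by one, with a median log2 of −1.66 for wild type 1 against wild type 2. The sum of 8 smooth muscle and pericyte markers was 238728 and 216246 in the first set and 67090 to 126840 in the second. That of 5 mesothelial markers was 61241 in knockout 1, 26485 in wild type 1 and 8550 to 16682 in the second set. The part of these marker levels in the results below was not tested. In bulk RNA, fewer cells of a type and less RNA per cell cannot be told apart.

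The promoter windows of 5 of the 10 genes were in the RefSeq table (GRCm38.p6). The 250 bases before the start site are shown for Erg, Tal1, Gata2 and Lyl1. These 4 were picked by name, all genes with their highest levels in wild type 1 and knockout 1, and the Ets2 window was not examined. RefSeq listed 3 windows for Erg, 2 each for Tal1 and Gata2 and 1 for Lyl1. Shown is the window at the annotated gene start, and motifs were counted in that window alone. Capitals mark GGAA on either strand (TTCC on the strand shown).
Erg, chr16:95586594-95586843, minus strand: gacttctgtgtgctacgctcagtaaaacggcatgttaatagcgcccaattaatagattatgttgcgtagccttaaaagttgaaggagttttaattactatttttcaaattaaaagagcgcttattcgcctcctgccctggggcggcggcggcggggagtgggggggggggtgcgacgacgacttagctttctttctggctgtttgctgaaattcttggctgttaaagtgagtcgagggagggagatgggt
Tal1, chr4:115056176-115056425, plus strand: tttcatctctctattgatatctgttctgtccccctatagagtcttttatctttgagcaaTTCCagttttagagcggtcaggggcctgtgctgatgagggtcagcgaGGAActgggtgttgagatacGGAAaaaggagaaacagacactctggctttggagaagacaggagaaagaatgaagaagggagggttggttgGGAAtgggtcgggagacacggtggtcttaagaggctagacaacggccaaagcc
Gata2, chr6:88193641-88193890, plus strand: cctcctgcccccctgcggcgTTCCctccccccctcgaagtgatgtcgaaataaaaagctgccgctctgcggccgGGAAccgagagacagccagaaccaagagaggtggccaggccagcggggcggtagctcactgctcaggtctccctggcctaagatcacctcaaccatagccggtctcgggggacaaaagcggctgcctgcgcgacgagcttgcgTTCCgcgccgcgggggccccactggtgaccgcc
Lyl1, chr8:84701207-84701456, plus strand: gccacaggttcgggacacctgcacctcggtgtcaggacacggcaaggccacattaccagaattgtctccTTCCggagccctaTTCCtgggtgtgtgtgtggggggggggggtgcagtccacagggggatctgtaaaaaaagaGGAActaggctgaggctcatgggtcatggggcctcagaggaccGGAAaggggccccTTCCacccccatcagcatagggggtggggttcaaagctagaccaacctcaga

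A total of 4 motifs were searched on both strands: GGAA, the ETS core; CGGAAG, a longer ETS form; GATAA, bound by GATA factors; and ACAAT, a SOX core. The palindromic E-box CANNTG, bound by TAL1 and LYL1 with their partners, was searched as well. GGAA matches contain every CGGAAG match. The Lyl1 window held 5 GGAA matches, 1 CGGAAG, 1 CANNTG and 1 ACAAT. The Tal1 window held 4 GGAA and 1 GATAA, the Gata2 window 3 GGAA, and the Erg window 0 of any of the 5. Among all 32841 windows of this length in the table, 93.5% held GGAA, 13.6% CGGAAG, 22.6% GATAA, 66.2% CANNTG and 27.7% ACAAT. A match is a description of letters only, and these data hold no binding measurement.

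Erg and Fli1 were highest in wild type 1. Erg (chromosome 16, 95359169 to 95586593, minus strand) read 4832 and 1603 normalized counts in wild type 1 and 2, against 2754, 1632, 1442 and 1109 in knockout 1 to 4. Fli1 (chromosome 9, 32422204 to 32542861, minus strand) read 1251 and 757 in the wild type pair, against 826, 799, 693 and 482 in knockout 1 to 4. In both genes wild type 1 stood above all other libraries and knockout 4 below them, while wild type 2 lay within the range of the knockout-labelled libraries. The ratio of wild type 1 to wild type 2, libraries of the same genotype, was 3.02 for Erg and 1.65 for Fli1.

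Ets1 and Ets2, which lie next to these genes, had other profiles. Ets2 is 115 kb from Erg on chromosome 16 (95702075 to 95721051, plus strand) and read 3587 and 5115 counts in the wild type pair, against 3201, 8267, 7339 and 5124 in knockout 1 to 4. Ets1 is 93.4 kb from Fli1 on chromosome 9 (32636221 to 32757820, plus strand) and read 4896 and 4663 in the wild type pair, against 4092, 7090, 6709 and 4343 in knockout 1 to 4. Both were highest in knockout 2 and lowest in knockout 1, so that wild type lay inside the knockout range for each. Within single libraries the ratio of Ets2 to Erg counts was 0.742 in wild type 1 and 1.16 in knockout 1, and 3.19 in wild type 2 against 5.06, 5.09 and 4.62 in knockout 2 to 4. The ratio of Ets1 to Fli1 counts was 3.91 and 4.96 in the first set, and 6.16 in wild type 2 against 8.87, 9.68 and 9.00 in knockout 2 to 4. Each knockout-labelled library was thus above the wild type of its set in both ratios, by log2 0.53 to 0.67 for Ets2 to Erg and 0.34 to 0.65 for Ets1 to Fli1. These ratios were chosen after the values were seen and were not tested, and 3 of the 4 differences share wild type 2. The macrophage markers above were low in the first set, as was Ets2. For Ets1 this held in knockout 1 only, as wild type 1 lay above wild type 2 and knockout 4. The part of macrophages and other cell types in the levels of Ets1 and Ets2 was not tested.

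The 3 SOXF genes differed in pattern within the second set, Sox18 being below wild type 2 in all 3 knockout-labelled libraries, Sox17 above it in all 3 and Sox7 mixed. Sox18 (chromosome 2, 181669836 to 181671640, minus strand) read 3604 and 1504 counts in the wild type pair, against 2458, 1343, 1100.05 and 836 in knockout 1 to 4, each knockout-labelled library being below the wild type of its set. Sox7 (chromosome 14, 63943673 to 63950732, plus strand) read 2481 and 924 in the wild type pair, against 1537, 1035, 1138 and 714 in knockout 1 to 4, and here knockout 2 and 3 were above wild type 2. Sox17 (chromosome 1, 4490931 to 4497354, minus strand) was the least abundant, with 633 and 164 in the wild type pair, against 361, 337, 316 and 234 in knockout 1 to 4. Wild type 2 had the lowest Sox17 of the 6 libraries, while wild type 1 had the highest. The 2 wild type libraries thus enclosed all 4 knockout-labelled ones. The count ratio of Sox17 to Sox18 was 0.176 in wild type 1 and 0.147 in knockout 1, and 0.109 in wild type 2 against 0.251, 0.288 and 0.280 in knockout 2 to 4. A transcript, Gm37587, overlaps 16.8% of the exonic length of Sox17 on the opposite strand and is not listed under that name, and whether counting used strand is not given, so Sox17 values may include its reads.

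Tal1, Lyl1 and Gata2 were all highest in wild type 1, next in knockout 1. Tal1 (chromosome 4, 115056426 to 115071755, plus strand) read 788 and 392 counts in the wild type pair, against 548, 262, 235 and 199.9 in knockout 1 to 4. Lyl1 (chromosome 8, 84701457 to 84704715, plus strand) read 357 and 127 in the wild type pair, against 252, 124, 93.5 and 70.7 in knockout 1 to 4. In Tal1 and Lyl1 each knockout-labelled library lay below the wild type of its set, and for Tal1 the gap was at least log2 0.52 in every one. Gata2 (chromosome 6, 88193891 to 88207032, plus strand) read 1816 and 909 in the wild type pair, against 1538, 986, 898 and 739 in knockout 1 to 4, with knockout 2 above wild type 2. The ratio of Tal1 to Gata2 counts was 0.434 and 0.431 in the wild type pair, against 0.357, 0.265, 0.262 and 0.270 in knockout 1 to 4, a quantity in which the genotypes did not overlap. It was picked after the values were seen and was not tested, and no share over other ratios was counted. Single genes had groups that did not overlap in 2.32% of those tested with knockout lower and 2.36% with knockout higher. Those shares are for single genes and are no measure for a ratio picked from many. The ratio of Lyl1 to Tal1 overlapped, at 0.453 and 0.324 in the wild type pair and 0.354 to 0.474 in the knockout-labelled libraries. Tal1 lies on the chromosome of Zmpste24, 5.99 Mb away.

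The 13 markers of mast cells, megakaryocytes and erythroid cells, blood lineages that also use these 3 factors, summed to 2449 to 3968 counts, and 6 of the 13 passed the filter. Gata1, the erythroid and megakaryocyte GATA factor, was listed at 0 in all 6 libraries, as were Fcer1a, a mast cell receptor gene, and the globin gene Hbb-bs. The mast cell protease genes Cpa3 and Tpsb2 did not exceed 6.39 and 1.03 counts. Kit, a receptor gene of mast cells that lung endothelium also expresses, had 1999.51 to 3758 counts, and the chemokine gene Pf4 had 18.8 to 751, with 18.8 and 20.5 in the first set. Mcpt4, a mast cell protease gene, had 39.8 and 63.7 counts in the first set and was listed at 0 in the second. Itga2b, a platelet integrin gene, had 74.7 to 112, the platelet chemokine gene Ppbp 1.15 to 34.3 and Epor, the erythropoietin receptor gene, 6.39 to 15.1. The part of these cells in the levels of Tal1, Lyl1 and Gata2 was not tested.

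**Figure D1:**
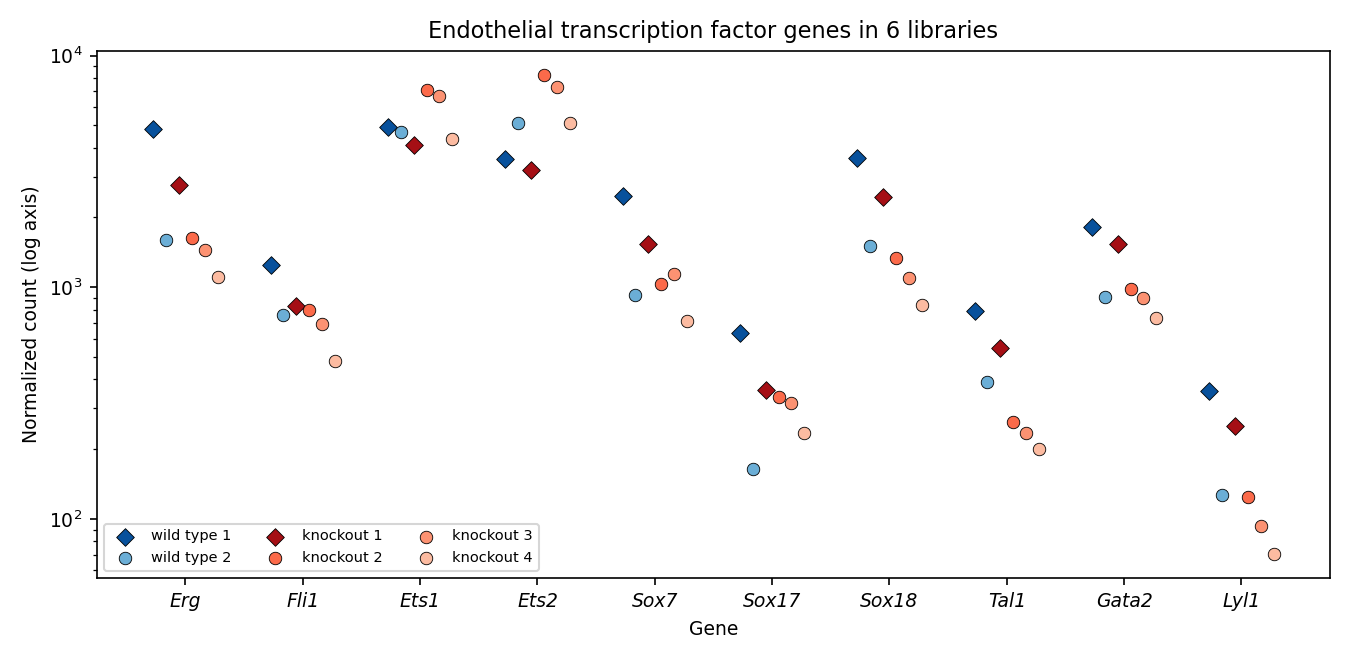
Normalized counts (log axis) of the 10 transcription factor genes, 1 point per library, with diamonds for the first library set (wild type 1 and knockout 1) and circles for the second. In 8 genes, all but Ets1 and Ets2, the diamonds are the highest 2 points, while in Ets2 they are the lowest 2, and wild type and knockout points overlap in all 10 genes.

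Between genes, levels were compared per kilobase of exonic length (GENCODE M21). On this scale the mean over the 6 libraries ran from 1116 normalized counts per kb for Sox18 and 941 for Ets2 through 643 for Erg, 625 for Ets1, 395 for Sox7, 229.9 for Fli1 and 213 for Gata2 to 94.8 for Lyl1, 92.3 for Tal1 and 71.4 for Sox17. Several neighbours in this order changed places between libraries. Sox18 was above Ets2 in 3 of 6 libraries, Erg above Ets1 in 2, Lyl1 above Tal1 in 3 and Tal1 above Sox17 in 3. Sox7 was above Fli1, and Gata2 above Lyl1, in 6 of 6. Erg and Fli1, the closest relatives, differed by a factor of 2.04 to 3.86 in count within each library.

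The first question put to these genes was whether they differed between genotypes. In limma with genotype as the only term, fitted to log2(normalized count + 1) of all 15229 genes with Benjamini-Hochberg adjustment, 0 of the 10 genes passed an adjusted p of 0.05. In all, 0.00657% of tested genes passed. EdgeR and DESeq2 also called 0 of the 10, beside 0.00657% and 0.046% of tested genes. Of the 10 differences, 8 were below 0 beside 49.8% of all tested genes, with a median log2 of −0.51 beside 0.00 over all genes. Tal1 went from a mean of 590.01 ± 280.4 (SD, n = 2) to 311 ± 160.2 (SD, n = 4), or −0.95 ± 0.49 on the log2 scale (SE), with a 95% interval from −2.15 to 0.24 and a limma adjusted p of 1.00. Lyl1, Sox18 and Erg differed by −0.82 ± 0.63, −0.82 ± 0.52 and −0.76 ± 0.53, and Fli1, Sox7 and Gata2 by −0.51 ± 0.30, −0.51 ± 0.46 and −0.36 ± 0.38 (log2, SE). Sox17 stood at −0.06 ± 0.53, and Ets1 and Ets2 at 0.17 ± 0.27 and 0.39 ± 0.41. The groups overlapped in all 10 genes. None of the 10 reached an unadjusted p of 0.05 in limma, edgeR or DESeq2 with genotype alone, beside 0.939% of all genes in limma. The direction of 4 genes rested on wild type 1. Without it the median of the 10 genes was 0.08, and Erg, Sox7, Gata2 and Sox17 changed sign, to 0.03, 0.21, 0.14 and 0.91. Tal1, Sox18, Fli1 and Lyl1 were then at −0.45, −0.19, −0.14 and −0.079. Without wild type 2 the median was −1.13. Of the 10 genes, 9 were higher in wild type 1 than in wild type 2 (all but Ets2), beside 48.8% of all tested genes.

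A fit with the library set as a second term, called set-adjusted here, compares genotypes within the sets. In it the spread narrowed and 0 of the 10 genes passed in limma, edgeR or DESeq2, beside 0.00657%, 0.0131% and 0.328% of all tested genes. Tal1 differed by −0.67 ± 0.16 (log2, SE; 95% interval −1.06 to −0.27), lower in 4 of 4 libraries, with an adjusted p of 0.999 in limma and 0.0985 in DESeq2. Sox18 differed by −0.51 ± 0.20, also lower in 4 of 4. These were the 2 genes of the 10 with an unadjusted p under 0.05 in this fit, 0.00674 and 0.0453 in limma, beside 3.51% of all genes, and the same 2 reached it in edgeR and DESeq2. Lyl1 (−0.46 ± 0.26), Erg (−0.46 ± 0.21), Fli1 (−0.38 ± 0.23), Sox7 (−0.26 ± 0.26) and Gata2 (−0.14 ± 0.14) were below 0 and Ets1 (0.10 ± 0.25), Sox17 (0.18 ± 0.39) and Ets2 (0.18 ± 0.24) above. The 95% interval of Ets1 ran from −0.53 to 0.74 and that of Sox17 from −0.81 to 1.16, so that differences of this size could not be told from 0.

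Of the 10 genes 3, Sox18, Tal1 and Lyl1, were below the wild type of their set in each knockout-labelled library, as were 10.8% of all tested genes. None of the 10 was above it in all 4, beside 10.1% of all tested genes. Against wild type 2, Tal1 stood at log2 −0.58, −0.74 and −0.97 in knockout 2, 3 and 4, and against wild type 1 at −0.52 in knockout 1. Sox17 had the widest range, at −0.81 in knockout 1 but 1.04, 0.95 and 0.51 in knockout 2 to 4. In knockout 4 the values of Erg, Fli1, Sox7, Sox18, Tal1, Gata2 and Lyl1 were the lowest of the 6 libraries, and so was its endothelial marker sum.

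**Figure D2:**
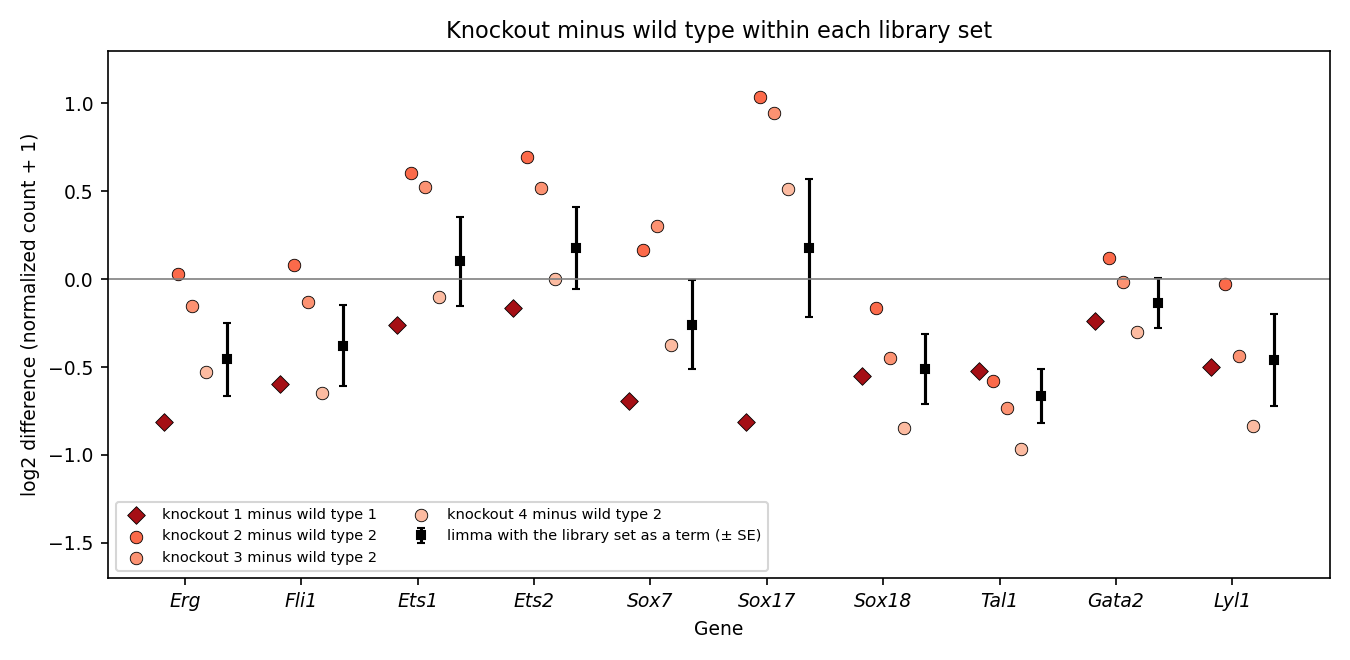
Log2 difference of each knockout-labelled library from the wild type library of its own set, for the 10 genes, with the set-adjusted limma estimate as black squares (bars: SE). All 4 points lie below 0 in Sox18, Tal1 and Lyl1, and in Sox17 the diamond of knockout 1 lies at −0.81 while the circles of knockout 2 to 4 lie at 0.51 to 1.04.

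The second question was how the 10 genes moved relative to other endothelial genes. Divided by the summed counts of the 11 endothelial markers in the same library, Erg was nearly level. It stood at 27.0 and 27.6 counts per 1000 marker counts in wild type 1 and 2, and at 25.7, 25.4, 26.2 and 28.4 in knockout 1 to 4. Its coefficient of variation over the 6 libraries was 62.4% as normalized counts and 4.30% per marker count, where counting alone gives 1.47% to 3.02% for Erg. Of 15218 tested genes outside the markers, 1 other was as level: Lmo2, the gene of the bridging protein of the TAL1 complex. Per geometric mean of the markers, which weights them equally, the variation of Erg was 6.49%, with 6 other genes as level. The choice of marker matters: Erg varied by 6.35% per Cdh5 count but by 38.1% per Kdr count. This scaling was chosen after the values were seen, and the markers include genes that these factors are known to control.

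Of the 10 genes 6 varied by under 20% per marker count, beside 1.15% of tested genes outside the markers and 1 of 14 other endothelial genes with known ETS, SOXF or TAL1/GATA2 control. The remaining genes of that known-control list are themselves markers and were not compared. Per geometric mean of the markers, 6 of the 10, 3 of the 14 and 276 of the 15218 genes varied by under 20%. As normalized counts, 0 of the 10 varied by under 20%, beside 7292 of the 15218 genes and 2 of the 14. Dividing by the markers raised the median variation of the 15218 from 21.0% to 49.5%, so the 1.15% is itself a product of the scaling. The 6 were Erg, Sox18 (10.2%), Lyl1 (11.96%), Sox7 (15.5%), Gata2 (19.0%) and Tal1 (19.7%). Sox17, Fli1, Ets1 and Ets2 varied by 30.8%, 25.2%, 49.6% and 58.9%. Fli1 stood at 6.99 and 7.70 per 1000 marker counts in the first set and 12.3 to 13.0 in the second. Ets2 stood at 20.03 and 29.8 in the first set, and at 88.0 in wild type 2 against 129, 133 and 131.02 in knockout 2 to 4. Tal1 stood at 4.402 and 5.11 in the first set, where knockout 1 was the higher, and at 6.74 in wild type 2 against 4.07, 4.27 and 5.11 in knockout 2 to 4. Sox17 stood at 3.54 and 3.36 in the first set, and at 2.81 in wild type 2 against 5.24, 5.75 and 5.99 in the rest of the second. On this scale Sox18, Tal1 and Lyl1 were above wild type 1 in knockout 1 and below wild type 2 in knockout 2 to 4. Ets1 and Ets2 were above the wild type of their set in 4 of 4 libraries, by log2 0.46 to 0.61 and 0.55 to 0.60. The share of all genes doing so on this scale was not counted. In the set-adjusted fit on this scale only 6.84% of all tested genes were below 0, so a rise was usual there. The marker sum was itself below the wild type of its set in knockout 1, 3 and 4, though not in knockout 2. As normalized counts, Ets1 was below that wild type in knockout 1 and 4 (log2 −0.26 and −0.10) and Ets2 in knockout 1 (−0.16). Dividing by the markers raised the median of all genes by log2 0.71, the marker sum being itself lower on average in the knockout-labelled libraries. Fli1, Sox7, Gata2 and Sox17 then changed sign, at 0.21, 0.21, 0.36 and 0.65, all below that shift. In the set-adjusted fit on this scale the shift was 0.39, and Sox17, at 0.57, was above it. In both fits 0 of the 10 passed in limma, beside 2 of all 15229 tested genes with genotype alone and 29 set-adjusted. None of the 10 reached an unadjusted p under 0.05 in either fit, beside 72 and 655 of all tested genes.

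**Figure D3:**
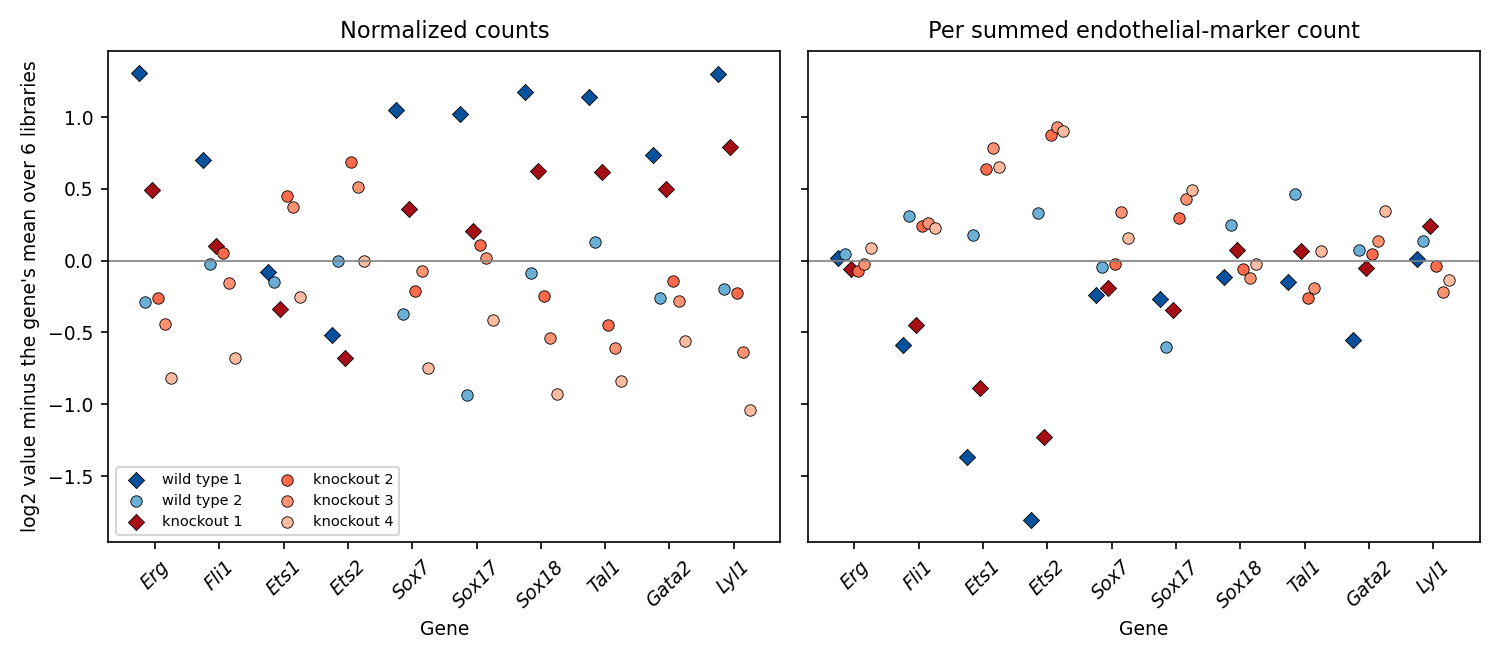
Log2 value of each gene minus its mean over the 6 libraries, 1 point per library, for normalized counts (left) and for counts divided by the summed endothelial markers of the library (right). The points of Erg draw together from a coefficient of variation of 62.4% to 4.30%, while those of Ets1 and Ets2 move apart by library set. Per marker count Ets1 varied by 49.6%, close to the median of 49.5% over tested genes outside the markers.

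For each gene the tested gene with the nearest centred log2 profile over the 6 libraries was found among 11996 named genes with a mean of at least 50, by root-mean-square difference. That of Erg was Lmo2 (0.07), with 1963 and 690.1 counts in the wild type pair, against 1136, 725, 591 and 423 in knockout 1 to 4. That of Sox18 was Egfl7 (0.04), an endothelial secreted-protein gene, and that of Sox7 was Plxnd1 (0.06), the plexin receptor gene of vessels. The others were Gimap8 for Fli1, Sema4c for Ets1, Obsl1 for Ets2, Cxcr3 for Sox17, St6galnac3 for Tal1, Atox1 for Gata2 and Ntn4 for Lyl1, at 0.03 to 0.08. Among the 10 genes themselves, Sox18 and Lyl1 were nearest to each other (0.11), and so were Sox7 and Gata2 (0.19) and Ets1 and Ets2 (0.28). These are likenesses over 6 libraries only, and many of the profiles, though not that of Ets1, share the gap between the library sets.

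The third question was how related factors and target genes compared. Of 22 other ETS factor genes, 14 were tested, 0 were called in either direction by limma, edgeR or DESeq2 with genotype alone or set-adjusted, and their set-adjusted median log2 was −0.00, with 7 of 14 below 0. The 3 most abundant were Elk3 (−0.23 ± 0.08), Gabpa (0.08 ± 0.06) and Elf1 (0.06 ± 0.09; log2, SE), the first a repressor-type ETS factor of vessels. Gabpa, a widely expressed ETS factor, was the only one of the 14 whose groups did not overlap, with knockout higher, as in 2.36% of all tested genes. Spi1, the ETS factor of macrophages, was singled out after its values were seen: it was listed at 0 in wild type 1, had 1.03 counts in knockout 1 and 135 to 270.1 in the other 4 libraries, as the macrophage markers did.

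Of 16 other SOX genes, 8 were tested and 0 were called, with a set-adjusted median of 0.05, 3 of 8 being below 0. Sox4, the most abundant, differed by −0.12 ± 0.08, Sox5 by 0.34 ± 0.15 and Sox12 by 0.09 ± 0.25 (set-adjusted log2, SE). Of 18 partners of TAL1 and GATA2 and other haematopoietic factors, 13 were tested and 0 called, with a set-adjusted median of −0.14 and 10 of 13 below 0, beside 50.7% of all tested genes. Tcf4 (−0.15 ± 0.16) and Tcf12 (−0.07 ± 0.08), E-protein partners of TAL1, and Ldb1 (0.03 ± 0.10), the scaffold of the complex, were the most abundant.

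Of 18 other endothelial transcription factor genes all were tested and 0 were called, with a set-adjusted median of −0.00 and 9 of 18 below 0. The most abundant were Mef2a (−0.01 ± 0.10), Nr2f2, the venous factor gene (0.03 ± 0.22), and Foxp1 (−0.09 ± 0.08). Groups did not overlap, with knockout lower, in 3 of the 18, beside 2.32% of all tested genes. These were Prox1, the lymphatic factor gene (−0.93 ± 0.31), Hhex (−0.85 ± 0.25) and Meox1 (−0.69 ± 0.28), named after their values were seen. Groups were likewise apart, with knockout lower, in 3 of the 24 endothelial genes of the last list below. Hhex, a homeobox gene of early blood and endothelial precursors, read 621 and 483 counts in the wild type pair, against 476, 244, 243.5 and 171 in knockout 1 to 4.

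The last list held 24 endothelial genes with known control by these factors. All 24 were tested, and 23 were below 0 in the set-adjusted fit, beside 50.7% of all tested genes, with a median of −0.41 beside 0.00 over all genes. Only 14 of the 24 lie outside the panel of 11 endothelial markers. Over that panel the set-adjusted median was −0.43, with 11 of 11 below 0. All of the panel but the marker Ecscr is also in this list. The panel therefore cannot show whether the fall extends beyond the list. Limma and edgeR called 0 of the 24, beside 0.00657% and 0.0131% of all tested genes. In limma 8 were lower at an unadjusted p under 0.05, beside 3.51% of all tested genes in either direction. DESeq2 called 3 lower, beside 0.328% of all tested genes in either direction: Flt1, a VEGF receptor gene, Plvap, of endothelial diaphragms, and Vwf. Their DESeq2 adjusted p were 1.90e-04, 0.0116 and 0.00123, and their limma log2 differences −0.97 ± 0.15, −0.90 ± 0.18 and −0.82 ± 0.14 (SE). Of the 24, 9 were lower in each knockout-labelled library than in the wild type of its set, as were 10.8% of all genes. Within the second set, the medians of the 24 against wild type 2 were 0.00, −0.08 and −0.50 in knockout 2, 3 and 4, and the median was −0.65 in knockout 1 against wild type 1. The same medians of the 10 factors were 0.10, −0.07, −0.45 and −0.54. Without wild type 1, the median of the 24 with genotype alone was 0.07, and without wild type 2 it was −1.36.

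**Figure D4:**
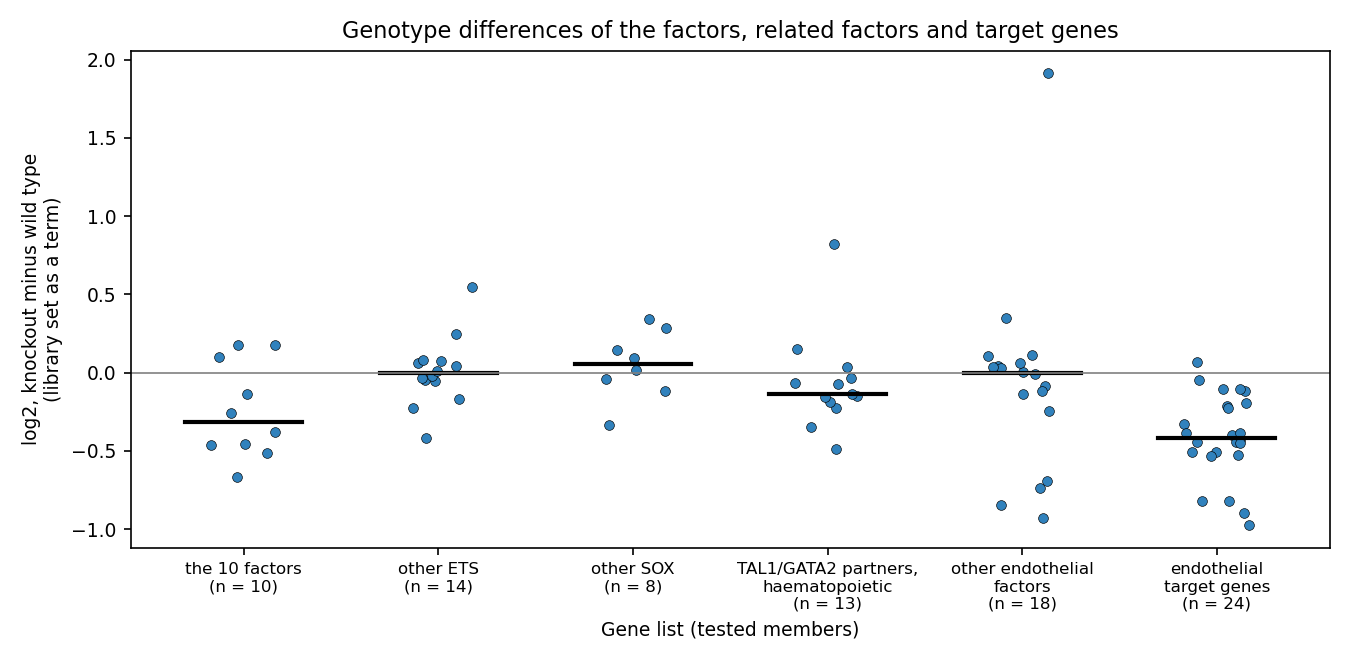
Log2 difference between knockout-labelled and wild type libraries in the set-adjusted fit, 1 point per tested gene and a line at each list's median. The medians are −0.32 for the 10 factors and −0.41 for the 24 target genes, and between −0.14 and 0.05 for the 4 lists of related factors. Only 14 of the 24 lie outside the endothelial markers, whose own median (not drawn) was −0.43. All of those markers but Ecscr are among the 24.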

How the data were processed

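The authors deposited 1 table of normalized count signal, read counts of each library divided by a size factor. The submitters' processing notes list the build GRCm38.p6 and the tools Trimmomatic 0.36, STAR 2.6.0c and Subread 1.6.1 (featureCounts). Their design text lists Trimmomatic 0.32, STAR 2.4.2a, HTSeq, GENCODE M17 and DESeq2 1.10.1 instead. Which of these produced the deposited values is not stated. Whole reads were recovered for 100% of values, within 1e-06 of a read. The main test was limma 3.58.1 (R 4.3.3; lmFit, then trended eBayes) on values of log2(normalized count + 1), which understates the change of low genes, with p adjusted over all tested genes. EdgeR 4.0.16 and DESeq2 1.42.0 ran on the recovered reads. Other settings were pseudocounts of 0.5 and 5, no filter and a mean of 50, TMM scaling, no trend, the title number as a block, the library set as a term, the second set alone and each library left out; scaling to endothelial markers was added after the data were seen. The coefficient of variation from counting alone was 7.66% at the lowest mean of the 10 genes. Library pairs of 1 genotype differed by more than sampling noise (chi-square per gene of 28.4 or more). The 10 genes, the lists, the library sets and the rule for named genes were chosen with earlier results of these data known. That rule took all 10 genes and, from each list, the called or the 3 most abundant members, and for each of the 10 the gene with the nearest profile.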

Additional observations from a re-analysis of the deposited data

Results flagged for a closer look

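Among the 48 genes checked for a knockout-labelled library far from the other 3, 5 stood out, where chance gives about 2.4 (1 in 20). None of the 10 transcription factor genes was among them. The figure of 2.4 holds for comparable libraries and for genes that vary independently. Knockout 1 was the only knockout-labelled library in the first library set. It was the outlying library in Vwf, Prox1, Mcpt4 and Itga2b. Some of the 48, such as Prox1, were also picked with their levels already known. The 5 therefore cannot be read as an excess over chance. Vwf, the von Willebrand factor gene, had 2939 normalized counts in knockout 1 against 819 to 971 in knockout 2 to 4. Prox1 had 1703 in knockout 1 against 636 to 725 in the other 3. Elf1, a broadly expressed ETS factor, had 3528 in knockout 4 against 3147 to 3206 in the other 3. Of the mast cell and platelet markers, Mcpt4 had 63.7 in knockout 1 and was listed at 0 in the other 3, and Itga2b had 105.8 in knockout 1 against 74.7 to 76.6.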

How the results depend on the processing

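None of the 10 transcription factor genes was called under any of 19 other settings or the 4 scalings, chosen after the data were seen, to endothelial markers; the lowest adjusted p was 0.0985, for Tal1 in set-adjusted DESeq2. Fli1, Sox18, Tal1 and Lyl1 stayed below 0, and Ets1 and Ets2 above 0, under the 19, but their size depended on single libraries. Leaving out one in turn, Lyl1 ranged from −1.57 to −0.079, Sox18 from −1.45 to −0.19, Tal1 from −1.46 to −0.45, Fli1 from −0.87 to −0.14, Ets1 from 0.043 to 0.31 and Ets2 from 0.13 to 0.66. In the same way Erg ranged from −1.56 to 0.031, Sox7 from −1.22 to 0.21, Sox17 from −1.04 to 0.91 and Gata2 from −0.86 to 0.14 (log2). In the second library set alone Sox7 was 0.030 and Sox17 0.83. Set-adjusted, Sox17 was 0.18 in limma, 0.13 in edgeR and 0.14 in DESeq2. The shared title numbers do not name a shared animal. The deviations of wild type 1 and knockout 1 correlated across genes at 0.841 and those of wild type 2 and knockout 2 at 0.562, and with the number as a block (replicate block) Sox17 was 0.11 and limma called 0 genes (781 at an unadjusted p under 0.05); knockout 3 and 4 then add nothing to the difference. Per summed endothelial markers (shift of all genes 0.71, set-adjusted 0.39), Fli1 was 0.21, Sox7 0.21, Sox17 0.65 and Gata2 0.36, and set-adjusted 0.018, 0.14, 0.57 and 0.26. Per geometric mean (0.66 and 0.37) they were 0.15, 0.15, 0.59 and 0.30, and with that term Sox7 was 0.12, Sox17 0.55 and Gata2 0.24. Over all genes the main test called 1; a pseudocount of 5 gave 2, DESeq2 7, set-adjusted edgeR and DESeq2 2 and 50, the second set alone 0 (302 at an unadjusted p under 0.05), leaving out a library 0 to 2, and the marker scalings 2 (summed), 29 (summed, with the set) and 11 (geometric mean, with the set). The cause was not tested. With 2 wild type libraries, 1 per library set, each difference rests on few libraries.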
